A study of Homo sapiens with 44 samples.

Results

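The second round of the cell cycle that followed thymidine washout was set against the first in IMR5/75 cells with MYCN left high, using 8 of the 44 libraries of the series. The second cycle was represented by 4 libraries, 2 at 16 h and 2 at 22 h after washout of thymidine. The first cycle was represented by 4 libraries, 2 at 3 h and 2 at 8 h. The times were picked from the data themselves, as the first (3 and 8 h) and second (16 and 22 h) maxima of replication-dependent histone and mitotic transcripts, so the levels of those 2 gene groups are described here without a test. The 16 h and 3 h libraries stand for S phase, and the 22 h and 8 h libraries for late G2 and mitosis.

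IMR5/75 is a human neuroblastoma line, a single line with amplified MYCN. All libraries came from cells that carry a short hairpin RNA against MYCN that tetracycline switches on, and all cells spent 18 h in thymidine before washout. In the 8 libraries compared here tetracycline was absent (Tet minus), so the hairpin was not induced, and 2 biological replicates were labelled at each time. The series also followed the same line with tetracycline (Tet plus), sampled at 3, 8, 16 and 22 h as well. No library of cells that had never been arrested was analysed here, so a lasting effect of the arrest, the time since washout and the loss of synchrony cannot be told apart. Lane numbers in the sample titles also differed between the sides: the second-cycle libraries ran in lanes 3 and 6, the 3 h libraries in lanes 8 and 4 and the 8 h libraries in lanes 2 and 5. Lane and cycle therefore cannot be told apart in this comparison either.

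Excess thymidine raises the pool of thymidine triphosphate, which inhibits ribonucleotide reductase and starves replication forks of deoxycytidine triphosphate. Cells stop at the start of S phase or within it, keep growing in mass, and enter S phase together once thymidine is washed out. Immediate early genes are transcription factors and signalling regulators that growth factors, calcium or stress switch on through kinases such as ERK without new protein synthesis. Several of them, the Sprouty proteins and dual-specificity phosphatases among them, feed back to shut the ERK pathway down.

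The second-cycle libraries held 14318922 to 23453862 gene counts each, against 17956480 to 22837786 in the first-cycle libraries. Spike-in (ERCC) transcripts made up 1.35% to 3.18% of counts in the second cycle, against 0.806% to 3.00% in the first. Of the markers of noradrenergic neuroblastoma, PHOX2A, HAND2 and CHGA were abundant, with HAND2 at 258 to 469 CPM (counts scaled to a common library total, with TMM factors) over the 8 libraries. TH, the tyrosine hydroxylase of catecholamine synthesis, was nearly absent, at 0 to 0.0968 CPM. None of 14 epithelial markers and 1 of 12 blood and endothelial markers (CD68) averaged over 1 CPM, and KRT5, KRT14, CD3E and HBB had no counts. Of 23 mesenchymal and Schwann-like markers 16 averaged over 1 CPM, VIM the most. Their summed level was 1205 to 1879 CPM in the second cycle, against 977 to 1585 CPM in the first, and its part in the results below was not tested.

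The second maxima matched the first in time only in part. Histone transcripts summed to 22697 and 25573 CPM at 16 h, against 36677 and 23367 CPM at 3 h, so the replicates at 3 h differed by more than the cycles did. Of 42 histone genes with a mean of at least 1 CPM, all 42 were highest in the first cycle at 3 h, whereas in the second cycle 11 were highest at 16 h and 31 at 18 or 20 h. At 22 h histone transcripts were still at 17596 and 18135 CPM, against 8767 and 8476 CPM at 8 h, and 38 of the 42 genes were higher at 22 h than at 8 h. Mitotic transcripts (58 genes such as AURKB and KIF23) summed to 10143 and 12204 CPM at 22 h, against 16772 and 18767 CPM at 8 h. None of the 58 was higher at 22 h than at 8 h, and 49 had their highest late value at 22 h, the last time sampled. The 22 h libraries carried more histone and less mitotic RNA than the 8 h libraries, so the times are second maxima only roughly. A bulk sample does not tell fewer cells in a phase from less RNA per cell.

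**Figure D1:**
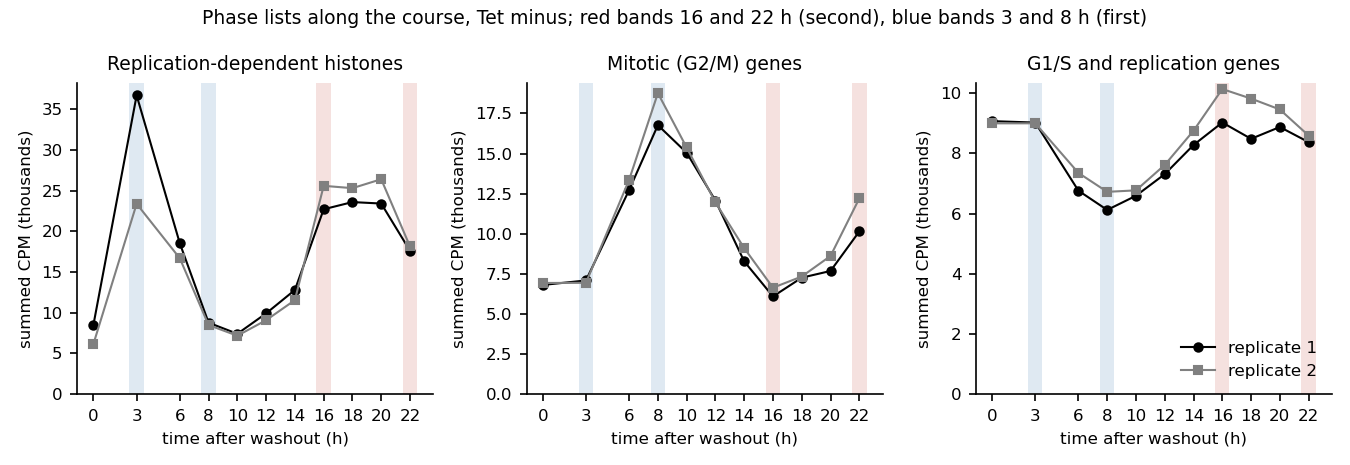
Summed CPM of replication-dependent histone, mitotic and G1/S genes against time after washout in Tet minus cells, 1 line per replicate. Red bands mark 16 and 22 h, blue bands 3 and 8 h. Mitotic transcripts reached 10143 and 12204 CPM at 22 h, below the 16772 and 18767 CPM at 8 h, and histone transcripts formed a broad second maximum from 16 to 20 h.

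MYCN did not pass the test. It stood at 1414 and 1421 CPM at 16 h and 1080 and 1274 CPM at 22 h, against 1331 and 1393 CPM at 3 h and 1184 and 1159 CPM at 8 h. The groups overlapped, and the log2 difference of second over first cycle was 0.03 (95% interval -0.19 to 0.24, adjusted p = 0.91).

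Across 13883 genes tested, 71 were higher and 313 lower in the second cycle than in the first. This was tested with edgeR's quasi-likelihood test, with phase and replicate number as covariates and Benjamini-Hochberg adjusted p under 0.05. The called genes were 2.77% of those tested, with 0.511% higher and 2.25% lower. At least 2-fold differences were found in 3 of the higher and 113 of the lower genes, and 379 of the 384 moved the same way in all 4 same-numbered pairs. The choice of the called genes in these same libraries favours such agreement, so it is a description. The count depends on the replicate term: without it 1 gene was higher (0.0072%) and 31 lower (0.223%), 0.23% of those tested together, and all 32 were among the 384. DESeq2 called 226 higher (1.63%) and 540 lower (3.89%), 5.52% in all, with 71 of the 71 higher and 301 of the 313 lower genes among them. The edgeR count also depends on single libraries. Without replicate 1 at 8, 16 or 22 h there were 95, 100 and 141 called genes, and without replicate 2 at 3, 16 or 22 h there were 229, 240 and 123. Of the 313 lower genes 27 belong to the histone and mitotic lists used to choose the times, which leaves 286. Other mitotic genes, such as the kinesin KIFC1 and the cytokinesis regulator RACGAP1, are among these 286.

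Most genes that were lower in the second cycle were highest soon after washout. Of the 286, 274 (95.8%) had their highest mean of all 11 times at 3, 6 or 8 h, against 38.1% of all genes tested, and 176 of them at 3 h. The choice of genes with a low second cycle favours such early maxima, so this is a description. The 0 h libraries played no part in that choice, but the cycle means they are set against did. The 0 h counts are therefore a description too, and all genes tested are not a matched background for them. Among the 286 lower genes 249 were below and 37 above their first-cycle mean at 0 h. At 0 h 165 (57.7%) were nearer to their second-cycle than to their first-cycle mean, against 41.5% of all genes tested. Their median log2 difference from the first-cycle mean was -0.84 in the second cycle and -0.46 at 0 h. In the second cycle 222 of them were below their 0 h level, with a median second-cycle minus 0 h difference of -0.35. Of the 71 higher genes 68 were lower at 0 h than in the second cycle, and their median log2 difference from the first cycle was 0.55 in the second cycle and 0.11 at 0 h.

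**Figure D2:**
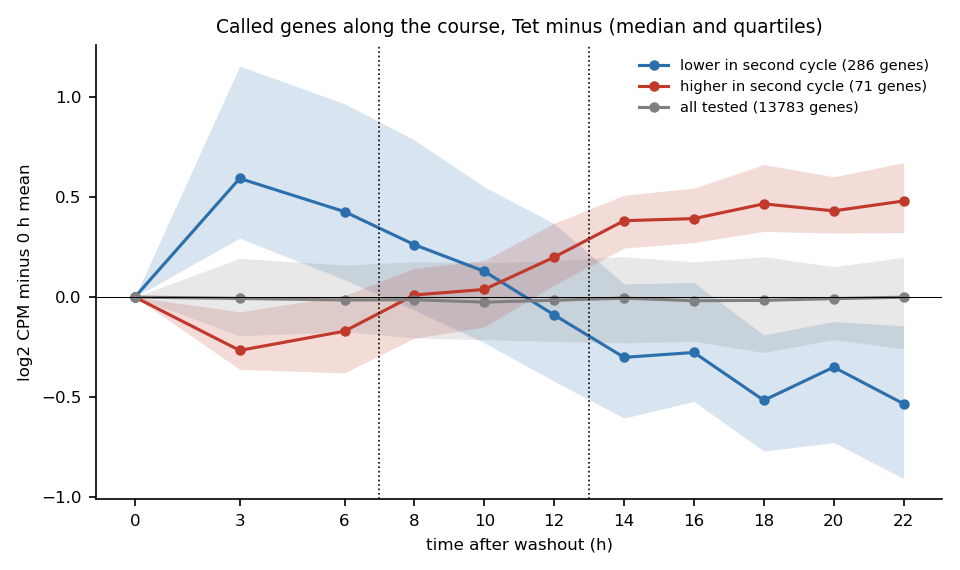
Log2 CPM minus the 0 h mean against time after washout for the 286 lower genes outside the histone and mitotic lists, the 71 higher genes and all genes tested outside those lists, in Tet minus cells. Lines are medians, shaded areas run between the quartiles, and dotted lines mark changes of lane. The lower genes peaked at 3 h with a median of 0.59 and reached -0.53 at 22 h, and the higher genes went below 0 at 3 h and stayed above it from 8 h on.

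Times that the comparison did not use, within 1 pair of lanes each, gave the following. From 0 to 6 h (lanes 8 and 4) 206 of the 286 lower genes (72.0%) went up in both replicates, against 29.9% of all genes. From 10 to 12 h (lanes 2 and 5) 191 of them (66.8%) went down in both replicates, against 28.8% of all genes, and from 14 to 20 h (lanes 3 and 6) 124 (43.4%) did, against 26.6%. Of the 71 higher genes 58 (81.7%) went up in both replicates from 10 to 12 h, against 34.4% of all genes. The steps that crossed lanes had a median absolute log2 difference between adjacent times of 0.130 from 6 to 8 h and 0.0949 from 12 to 14 h, against 0.0957 to 0.254 for steps within lanes. These medians cover 10031 genes with a mean log2 CPM of 3 or more, not the called genes alone. The choice of the called genes favours a fall or rise between the cycles, so these steps are a description. The part of lane was not tested.

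Immediate early genes were the list with the largest share lower, apart from the mitotic list that helped to choose the times. Of 34 genes on the list 33 were tested, and 12 (36.4%) were lower in the second cycle and 0 higher, beside 2.25% of all genes that were lower. The median log2 difference was -0.83, against -0.01 over all genes tested, and 32 of the 33 values were below 0. The 12 were EGR2, EGR3, EGR4, SPRY4, FOS, DUSP5, DUSP6, NR4A1, IER3, SPRY2, DUSP4 and IER5. Of these EGR3, SPRY4 and DUSP4 also passed without the replicate term. Some members entered the test through their level at 3 h alone, since EGR2, EGR3 and EGR4 were at 0 to 0.290 CPM in every second-cycle library. When genes with a mean log2 CPM under 3 were left out, 5 of 17 members (29.4%) were lower, beside 1.67% of the 10028 genes tested then. They were DUSP4, DUSP5, IER5, NR4A1 and SPRY2.

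The immediate early difference lay mostly between 16 and 3 h. At 16 against 3 h 24 of the 33 genes were lower and 0 higher (6.97% of all 14140 genes tested were lower), with a median log2 difference of -1.27. At 22 against 8 h 6 were lower and 0 higher (3.42% of all genes were lower), with a median of -0.47. In 26 of the 33 genes the mean at 3 h was the highest of all 11 times. JUN (79.8 and 80.7 CPM at 16 h, against 82.6 and 79.7 CPM at 3 h) and BTG1 were among the members that did not pass in any of these comparisons.

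SPRY4, a Sprouty protein that restrains ERK signalling from receptor tyrosine kinases, had 1.22 and 1.21 CPM at 16 h and 0.706 and 0.767 CPM at 22 h. In the first cycle it had 8.33 and 16.0 CPM at 3 h and 6.47 and 5.22 CPM at 8 h. The groups did not overlap, and the arrested cells at 0 h (0.514 and 0.891 CPM) were at the level of 22 h. Second over first cycle this was -3.16 ± 0.25 on the log2 scale (SE; adjusted p = 0.00010).

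FOS, a subunit of the AP-1 transcription factor, had 1.29 and 1.98 CPM at 16 h and 2.02 and 1.39 CPM at 22 h, against 10.2 and 16.0 CPM at 3 h and 6.33 and 2.90 CPM at 8 h. The groups did not overlap, though replicate 1 stayed high until 14 h and replicate 2 only until 6 h. This gave a log2 fold change of -2.21 ± 0.36 (adjusted p = 0.0088, and 0.050 without the replicate term). EGR1, an early zinc finger factor, averaged 1.06 CPM at 16 h, against 15.9 CPM at 3 h, but did not pass the test over both phases (adjusted p = 0.11). FOS and EGR1 were picked for their roles after the values were seen.

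DUSP5, a nuclear ERK phosphatase, had 5.80 and 8.42 CPM at 16 h and 4.002 and 4.604 CPM at 22 h, against 44.9 and 30.5 CPM at 3 h and 7.74 and 7.88 CPM at 8 h. Only the 3 h libraries stood far above the others, and over both phases its log2 difference was -1.67 ± 0.28 (adjusted p = 0.011, and 0.056 without the replicate term). DUSP4, another ERK phosphatase, was lower by like amounts at both phases, with log2 differences of -0.99 at 16 against 3 h and -0.98 at 22 against 8 h. ETV5, an ETS factor that ERK signalling induces, had 10.2 and 13.1 CPM at 16 h and 8.66 and 10.5 CPM at 22 h, against 27.9 and 25.7 CPM at 3 h and 39.4 and 28.9 CPM at 8 h. Its groups did not overlap, and its log2 fold change of -1.52 ± 0.18 (adjusted p = 0.0018) also passed without the replicate term (adjusted p = 0.015).

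NAB2, which binds EGR proteins and represses their targets, had 50.6 and 65.2 CPM at 16 h, against 319 and 280 CPM at 3 h. At 22 h it had 48.2 and 55.6 CPM, against 68.4 and 68.0 CPM at 8 h. The log2 difference was -2.38 (adjusted p = 3.8e-08) at 16 against 3 h and -0.41 (adjusted p = 0.10) at 22 against 8 h, and the difference between these passed its own test (adjusted p = 2.9e-05). Over both phases its value of -1.40 ± 0.31 (adjusted p = 0.037) missed the threshold without either replicate at 3 or 16 h or replicate 1 at 22 h (adjusted p up to 0.10), without the replicate term (0.13), with DESeq2 (0.063) and with the GC correction (0.084). NR4A1, an orphan nuclear receptor of the same early class, and SIK1, a kinase that restrains CREB coactivators, fell by 1.20 and 1.19 on the log2 scale (adjusted p = 0.0075 and 0.0029). Without the replicate term NR4A1 missed the threshold (adjusted p = 0.0502) and SIK1 passed (0.024).

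**Figure D3:**
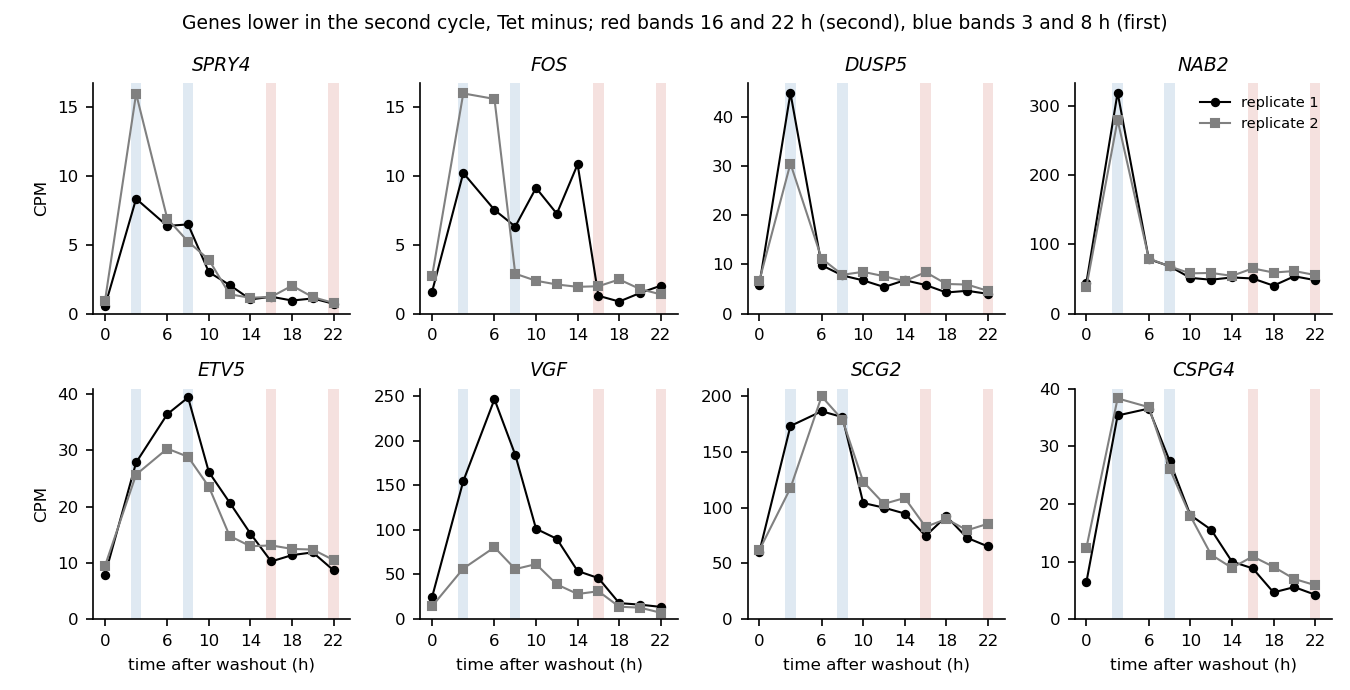
CPM against time after washout in Tet minus cells for 8 genes lower in the second cycle, 1 line per replicate. Red bands mark 16 and 22 h, blue bands 3 and 8 h. SPRY4, DUSP5 and NAB2 were highest at 3 h in both replicates, FOS replicate 1 stayed at 6.33 to 10.9 CPM until 14 h, and ETV5, VGF, SCG2 and CSPG4 were high from 3 to 8 h. All 8 were lower at 16 h than at 3 h in both replicates.

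VGF and SCG2 were the only called members among 35 neuronal differentiation genes (5.71% lower, beside 2.25% of all genes), whose median was -0.02, with 15 values above 0. VGF, a precursor of neuropeptides that neurotrophins and CREB induce, had 45.9 and 31.2 CPM at 16 h and 13.7 and 7.10 CPM at 22 h. In the first cycle it had 155 and 56.6 CPM at 3 h and 184 and 56.0 CPM at 8 h. Both replicates fell, replicate 1 from the higher level, and the groups did not overlap. On the log2 scale VGF was at -2.30 ± 0.36 (adjusted p = 0.0075, and 0.096 without the replicate term). SCG2, the granule protein secretogranin II, had 74.5 and 82.7 CPM at 16 h and 65.1 and 85.5 CPM at 22 h, against 173 and 117 CPM at 3 h and 181 and 179 CPM at 8 h. It was lower by 1.08 ± 0.14 on the log2 scale, without overlap, and passed with (adjusted p = 0.0029) and without the replicate term (adjusted p = 0.017).

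CSPG4, the NG2 proteoglycan of progenitor cells, had the smallest adjusted p (8.0e-05) among the named genes. It had 8.81 and 10.9 CPM at 16 h and 4.24 and 5.90 CPM at 22 h, against 35.4 and 38.4 CPM at 3 h and 27.5 and 26.2 CPM at 8 h, with 6.45 and 12.4 CPM at 0 h. The log2 fold change was -2.16 ± 0.16, with no overlap. SSTR5, a somatostatin receptor, fell by 1.24, GEM, a small GTPase that lowers calcium channel activity, by 1.27, and ZYX, the focal adhesion protein zyxin, by 1.18 on the log2 scale. These 4 genes also passed without the replicate term.

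Of 24 noradrenergic identity genes, 3 were lower (12.5%, beside 2.25% of all genes) and 0 higher (beside 0.511%). They were DBH, the enzyme that makes noradrenaline, RET, a receptor tyrosine kinase, and GCH1, which makes a cofactor of tyrosine hydroxylase. GCH1 had 11.1 and 5.56 CPM at 16 h and 9.60 and 6.62 CPM at 22 h, against 27.3 and 15.3 CPM at 3 h and 16.9 and 9.64 CPM at 8 h. The cycles overlapped when both phases were pooled, and the log2 difference came to -1.03 ± 0.17 (adjusted p = 0.0096). None of the 3 passed without the replicate term (adjusted p = 0.24, 0.079 and 0.19), and DBH also missed the threshold in 5 of 8 fits that left out 1 library (up to 0.11). The identity factor GATA2 had a value of -0.55 and did not pass (adjusted p = 0.067).

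Promoter stretches are shown for FOS and for the called named genes with the exact letters TGACGTCA in the 140 bases before the RefSeq start. These letters are the full form of the cAMP response element, a site that CREB factors bind. VGF and FOS were lower, DTL and FBXL20 higher. Capitals mark TGACGTCA and the TATA letters TATAAA, on either strand. Partial matches, such as the letters tgacgt in the FOS stretch, are not marked, so a stretch without marked TGACGTCA is not shown to lack the element. The stretches lie on GRCh38.p14 at chr7:101165570-101165709 (minus strand), chr14:75278688-75278827 (plus strand), chr1:212035608-212035747 (plus strand) and chr17:39402557-39402696 (minus strand).
VGF: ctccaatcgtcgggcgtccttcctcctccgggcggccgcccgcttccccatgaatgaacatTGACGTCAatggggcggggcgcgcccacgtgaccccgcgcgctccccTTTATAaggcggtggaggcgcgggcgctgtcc
FOS: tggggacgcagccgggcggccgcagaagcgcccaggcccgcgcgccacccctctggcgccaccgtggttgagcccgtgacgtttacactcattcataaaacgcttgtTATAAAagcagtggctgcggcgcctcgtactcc
DTL: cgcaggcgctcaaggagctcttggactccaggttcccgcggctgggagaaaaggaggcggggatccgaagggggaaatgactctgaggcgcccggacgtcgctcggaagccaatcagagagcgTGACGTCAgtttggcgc
FBXL20: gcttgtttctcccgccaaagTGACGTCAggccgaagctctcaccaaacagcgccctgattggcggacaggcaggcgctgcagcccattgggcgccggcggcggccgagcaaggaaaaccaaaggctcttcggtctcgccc

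RefSeq promoters, 250 bases before to 50 after the start, were matched by symbol for 234 of the 313 lower, 59 of the 71 higher and 10607 of the 13883 tested genes. TGACGTCA stood in 13 of the lower (5.56%) and 5 of the higher promoters (8.47%), beside 3.32% of all. TGANTCA, the AP-1 site, stood in 15 lower (6.41%) and 3 higher promoters (5.08%), beside 4.12% of all, and the CArG box of serum response factor in 3 lower (1.28%) and 1 higher promoter (1.69%), beside 1.01%. CACGTG, the site of MYC and its partners, was at 10.3% of lower, 11.9% of higher and 10.4% of all promoters. TATAAA was at 8.55%, 6.78% and 5.5%. These shares cover both strands and letters only, and a letter match is not a bound site.

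HMOX1, the haem oxygenase that oxidative stress induces, had 10.3 and 20.0 CPM at 16 h and 8.05 and 13.6 CPM at 22 h, against 46.6 and 52.4 CPM at 3 h and 21.01 and 29.1 CPM at 8 h. On the log2 scale HMOX1 was at -1.51 ± 0.16 (adjusted p = 0.0013), with no overlap, and it was the only called member among 20 oxidative stress and metallothionein genes, whose median was -0.02. BHLHE40, a repressor of clock genes, was the only one called of 17 clock output genes (log2 fold change -1.17 ± 0.19, adjusted p = 0.0078). It missed the threshold without the replicate term (adjusted p = 0.056) and with 10 h in place of 8 h. MXD3, a MYC antagonist, was lower by 0.78 ± 0.11 (adjusted p = 0.0032) among 13 MYC network genes, of which no other was called.

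MALAT1, an abundant nuclear long non-coding RNA, had 1514 and 1116 CPM at 16 h and 1711 and 1467 CPM at 22 h, against 2827 and 2959 CPM at 3 h and 4156 and 1814 CPM at 8 h. It was at 0 h still near the first-cycle level, with a mean of 2880 CPM. MALAT1 was at -1.01 ± 0.17 on the log2 scale (adjusted p = 0.010, and 0.096 without the replicate term), and without replicate 1 at 8 h it missed the threshold (adjusted p = 0.055). NEAT1, the scaffold of paraspeckles, was lower by 1.08 ± 0.25 (adjusted p = 0.042), and its groups overlapped through 8 h replicate 2, with 90.8 CPM. Its call was lost in 13 of 22 alternatives, among them no replicate term (adjusted p = 0.21), DESeq2 (0.084), the GC correction (0.057) and 6 of 8 fits without 1 library (up to 0.21). No other of 12 abundant non-coding RNAs passed.

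Lists tied to the block itself had few called members. Of 38 nucleotide and thymidylate synthesis genes 0 were higher and 0 lower, with a median log2 difference of 0.04. By unadjusted p under 0.05 there were 9, beside 2796 of all 13883 genes tested, and DESeq2 called 2. TYMS, the thymidylate synthase, had 152 and 158 CPM at 16 h and 141 and 178 CPM at 22 h, against 196 and 240 CPM at 3 h and 182 and 158 CPM at 8 h. Its log2 difference was -0.30 (95% interval -0.56 to -0.04, adjusted p = 0.19). TK1, the thymidine kinase that salvages thymidine, was at -0.09 (95% interval -0.32 to 0.15). RRM2, the regulated subunit of ribonucleotide reductase, was lower at 16 against 3 h (log2 difference -0.76, adjusted p = 0.00069) but not called over both phases (-0.43, adjusted p = 0.13). TYMS, TK1, RRM1, CDKN1A and CHEK1 were picked for their roles after values were seen.

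Of 45 DNA damage checkpoint and repair genes 0 were called either way, by edgeR or DESeq2, with a median of 0.10. By unadjusted p under 0.05 there were 4, beside 2796 of all 13883 genes tested. CHEK1, the checkpoint kinase of stalled forks, had 40.1 and 48.3 CPM at 16 h and 54.9 and 66.4 CPM at 22 h, against 40.4 and 38.1 CPM at 3 h and 39.6 and 52.98 CPM at 8 h. The groups overlapped (log2 difference 0.27, adjusted p = 0.20). Of 31 p53 targets 1 was lower and 0 higher. CDKN1A, the p53-induced inhibitor of cyclin-dependent kinases, had 216 and 211 CPM at 16 h, against 302 and 266 CPM at 3 h. At 22 h it had 169 and 161 CPM, against 121 CPM in both replicates at 8 h. Its difference thus ran in opposite directions at the 2 phases, both past the threshold (adjusted p = 0.014 and 0.013), and averaged to 0.01. SERTAD1, a CDK4 regulator listed among p53 targets, was the 1 called member (log2 fold change -0.81 ± 0.19, adjusted p = 0.044). That call was lost in 13 of 22 alternatives, among them no replicate term (0.13) and 7 of 8 fits without 1 library (up to 0.16).

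In the unfolded protein response and heat shock list 2 of 28 genes were lower (7.14%, beside 2.25% of all genes) and 0 higher: HERPUD1 and EDEM1, both of endoplasmic reticulum degradation, at -0.60 and -0.65 on the log2 scale (adjusted p = 0.0445 for each). By phase, 10 of the 28 were lower and 0 higher at 22 against 8 h (3.42% of all genes were lower), and 6 were higher and 1 lower at 16 against 3 h (5.27% of all genes were higher). At 18 and 20 against 6 h 10 were lower and 2 higher, beside 11.5% of all genes lower and 8.82% higher. Of 37 ATF4 and amino acid response genes SLC7A11, the cystine transporter, was lower by 0.86 ± 0.20 and DDIT4 higher. In 20 interferon response genes IRF1 alone was called (-0.85 ± 0.19, adjusted p = 0.032), and in 7 NF-kB genes RELB alone (-0.96 ± 0.21, adjusted p = 0.031). None of HERPUD1, EDEM1, SLC7A11, IRF1 and RELB passed without the replicate term (adjusted p = 0.12, 0.13, 0.46, 0.10 and 0.14), and each missed the threshold in 6 or 7 of 8 fits without 1 library (up to 0.21). None was called among 29 cholesterol, 34 hypoxia and glycolysis, 27 lysosome, 15 BCL2 family, 17 mesenchymal or 18 G1 cyclin and CDK inhibitor genes. In these 6 lists 3, 9, 7, 6, 8 and 5 genes had an unadjusted p under 0.05, beside 2796 of all 13883 genes tested.

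**Figure D4:**
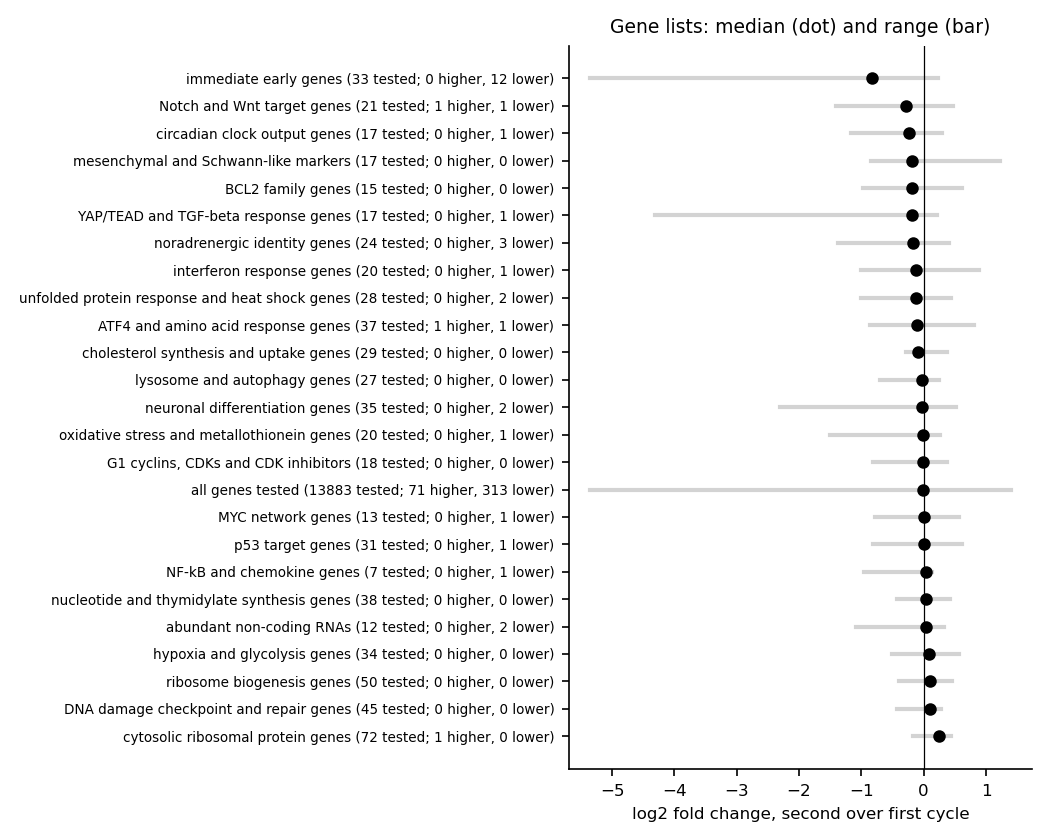
Log2 fold change, second over first cycle, for gene lists with at least 5 genes tested, in Tet minus cells, without the histone, mitotic and G1/S lists. Dots are medians, grey bars run over the whole range, and labels give the genes tested and called. The median of the immediate early list was -0.83, and those of the other lists plotted lay between -0.29 and 0.25.

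Replication licensing genes were among those higher in the second cycle. Of 50 G1/S and replication genes 4 were higher (MCM5, DTL, MCM6 and MCM3) and 0 lower, beside 0.511% of all genes that were higher. The list follows cell cycle phase, and the mitotic and histone sums given above also differed between the cycles. Their part in these calls was not tested. MCM3, MCM5 and MCM6 encode subunits of the helicase that licenses and opens replication origins, and DTL a ligase subunit that removes the licensing factor CDT1.

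MCM6 had 349 and 383 CPM at 16 h and 337 and 351 CPM at 22 h, against 222 and 320 CPM at 3 h and 200 and 239 CPM at 8 h. All 4 second-cycle libraries were above all 4 first-cycle libraries, and the log2 difference came to 0.55 ± 0.11 (adjusted p = 0.024). MCM5 had 437 and 539 CPM at 16 h and 310 and 302 CPM at 22 h, against 325 and 338 CPM at 3 h and 176 and 211 CPM at 8 h. Its pooled groups overlapped, but each phase was higher in the second cycle, with a log2 fold change of 0.61 ± 0.10 (adjusted p = 0.011). None of the 4 passed without the replicate term (adjusted p from 0.056 to 0.13). MCM6 also missed the threshold without any 1 of both replicates at 8 h, both at 22 h or replicate 1 at 16 h (adjusted p up to 0.12), MCM3 without either replicate at 8, 16 or 22 h (up to 0.16), MCM5 without replicate 1 at 8 or 22 h (up to 0.063) and DTL without replicate 1 at 8 or 16 h (up to 0.064). Scaled to the spike-ins, under which the median gene was at -0.58, MCM6 and MCM3 were at -0.0041 and -0.08, which is 0.57 and 0.50 above that median.

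Among higher genes that averaged a log2 CPM of 3 or more, the largest log2 fold changes were those of B3GALT2 (1.05), SLITRK6 (1.03), LRRN3 (1.00), C18orf1 (0.97) and NTN4 (0.94). B3GALT2, a galactosyltransferase, had 20.2 and 16.8 CPM at 16 h and 15.6 and 19.2 CPM at 22 h, against 8.77 and 5.71 CPM at 3 h and 10.2 and 10.4 CPM at 8 h. The groups did not overlap (adjusted p = 0.012, and up to 0.059 without replicate 1 at 16 h or replicate 2 at 22 h). LRRN3, a neuronal leucine-rich repeat protein, differed between replicates more than between cycles, with 45.9 and 127 CPM at 16 h and 65.0 and 190 CPM at 22 h, against 28.8 and 61.1 CPM at 3 h and 27.5 and 89.9 CPM at 8 h. It was higher in all 4 same-numbered pairs (adjusted p = 0.0019), and the groups overlapped (adjusted p = 0.33 without the replicate term).

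CDH10, a cadherin of neurons, had 48.9 and 36.5 CPM at 16 h and 49.8 and 53.4 CPM at 22 h, against 22.9 and 17.1 CPM at 3 h and 36.1 and 28.7 CPM at 8 h. The cycles did not overlap (log2 fold change 0.88 ± 0.13, adjusted p = 0.0056). SEMA3A, a repulsive axon guidance cue, was higher by 0.66 ± 0.14 (adjusted p = 0.033), a call lost in 13 of 22 alternatives, among them the GC correction (0.079) and 7 of 8 fits without 1 library (up to 0.13). NTN4, a netrin, was higher by 0.94 ± 0.14 (adjusted p = 0.0068). MAP2K6, the kinase that activates p38, had 34.3 and 44.0 CPM at 16 h and 39.5 and 40.6 CPM at 22 h, against 18.8 and 19.4 CPM at 3 h and 21.1 and 27.3 CPM at 8 h. It was the 1 higher gene that also passed without the replicate term (log2 fold change 0.88 ± 0.13, adjusted p = 0.0039, and 0.034 without it). Scaled to the spike-ins, MAP2K6 was at 0.28 (adjusted p = 0.53), 0.85 above the median gene, and no gene was called higher. DDIT4, an inhibitor of mTORC1 that stress induces, had 70.1 and 77.2 CPM at 16 h and 85.2 and 60.9 CPM at 22 h, against 33.9 and 43.3 CPM at 3 h and 44.9 and 44.7 CPM at 8 h. The cycles did not overlap (0.81 ± 0.14, adjusted p = 0.010), yet the arrested cells at 0 h, at 67.6 and 60.4 CPM, were at the second-cycle level.

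**Figure D5:**
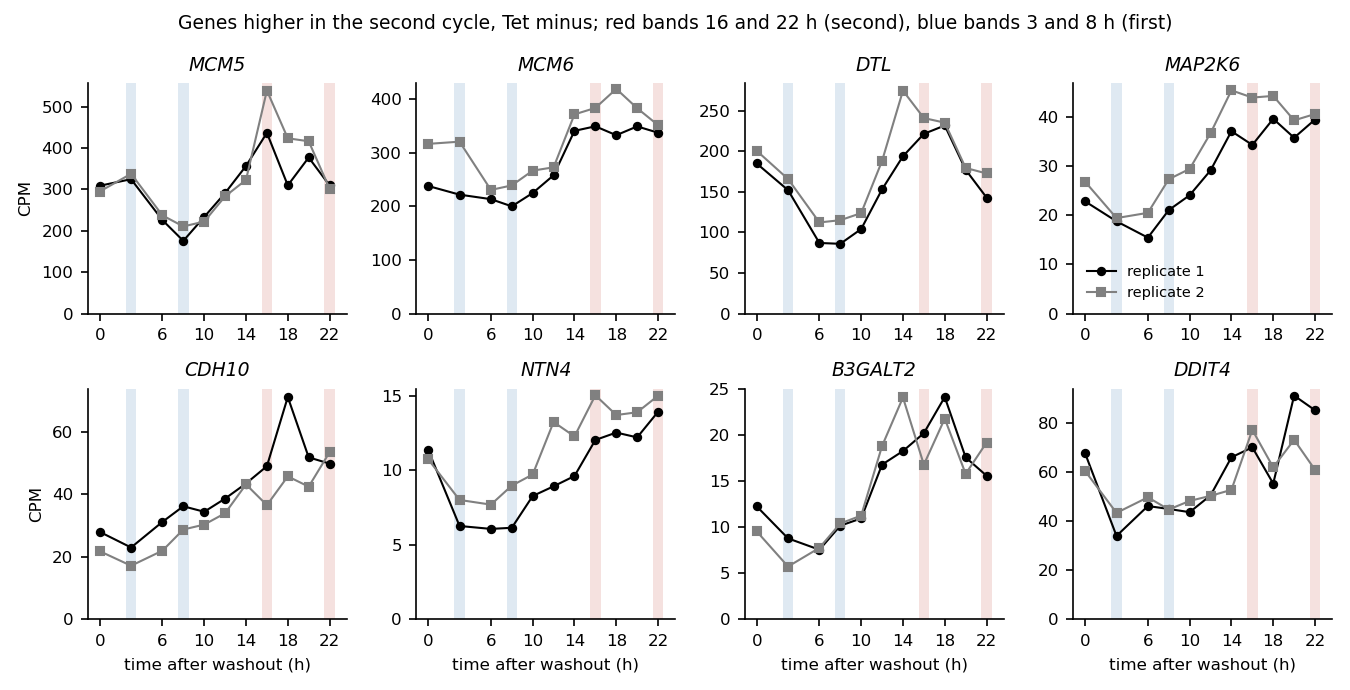
CPM against time after washout in Tet minus cells for 8 genes higher in the second cycle, 1 line per replicate. Red bands mark 16 and 22 h, blue bands 3 and 8 h. MCM5, MCM6 and DTL had their lowest values at 6 to 8 h and were above those from 14 h on, and CDH10, MAP2K6, NTN4 and B3GALT2 were higher from 12 or 14 h on than at 3 h.

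Cytosolic ribosomal protein genes had a median log2 difference of 0.25, and 69 of 72 values were above 0. Only RPL13A passed (0.44 ± 0.10, adjusted p = 0.043), and not without the replicate term (adjusted p = 0.24) or in 7 of 8 fits without 1 library (up to 0.21). At 22 against 8 h 11 of the 72 were higher and 0 lower (2.21% of all genes were higher). At 16 against 3 h 2 were higher, beside 5.27% of all genes. At 18 and 20 against 6 h 28 were higher and 0 lower, beside 8.82% of all genes that were higher. In Tet plus cells 26 were higher and 0 lower, beside 9.18% of all genes that were higher. Scaled to the spike-ins the list's median was -0.34, still 0.24 above the median gene. RPL13A also has near-identical pseudogenes, and its count is uncertain to that extent. Of 50 ribosome biogenesis genes 0 were called over both phases, with a median of 0.09. By unadjusted p under 0.05 there were 10, beside 2796 of all 13883 genes tested. At 16 against 3 h 14 of these were higher and 1 lower, where 5.27% of all genes were higher.

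Taken singly, the S phase pair differed in more genes than the mitotic pair. At 16 against 3 h 745 genes were higher and 986 lower of 14140 tested (12.2%), and at 22 against 8 h 312 were higher (2.21%) and 483 lower (3.42%), 5.62% of those tested. These counts draw on the spread of all 22 Tet minus libraries. Without the replicate term they were 113 and 213 at 16 against 3 h, and 51 and 110 at 22 against 8 h. The difference between the 2 phases itself passed in 391 genes (2.77%), 203 (1.44%) with a higher and 188 (1.33%) with a lower value at the mitotic phase (46 and 28 without the replicate term).

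Among the genes whose difference depended on phase, some moved at 1 phase and others in opposite directions. ETV4, an ETS factor like ETV5, had 18.7 and 34.8 CPM at 16 h, against 17.5 and 22.6 CPM at 3 h. At 22 h it had 6.97 and 14.0 CPM, against 36.5 and 42.2 CPM at 8 h. Its course ran later than that of the 3 h genes, with means above 38 CPM from 6 to 12 h. PDGFRA, the platelet-derived growth factor receptor, had 151 and 154 CPM at 22 h, against 75.7 and 68.2 CPM at 8 h. At 16 h it had 130 and 114 CPM, against 144 and 134 CPM at 3 h. UNC5C, a netrin receptor, had 114 and 220 CPM at 16 h, against 34.4 and 79.6 CPM at 3 h, and 129 and 263 CPM at 22 h, against 124 and 210 CPM at 8 h.

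Other Tet minus times about 1 cycle apart, which share no library with the comparison, were set against each other. Their phases were not matched. Mitotic transcripts summed to 12725 and 13363 CPM at 6 h, against 7259 to 8613 CPM at 18 and 20 h, and 56 of the 58 mitotic genes were lower. At 18 and 20 h against 6 h 1247 genes were higher and 1633 lower of 14140 (20.4%). Of the 313 genes lower in the second cycle 280 (89.5%) were also lower there, which is 17.1% of the 1633, and 67 of the 71 higher genes (94.4%) were also higher, which is 5.37% of the 1247. None was called in the opposite direction. The background was 11.5% of all genes lower and 8.82% higher. SPRY4 fell by 2.32, VGF by 3.25, CSPG4 by 2.49 and ETV5 by 1.47 on the log2 scale, and NAB2 by 0.57. MALAT1, NEAT1, IRF1 and SLC7A11 did not pass there (adjusted p = 0.20, 0.45, 0.32 and 0.25). The 6 h libraries ran in lanes 8 and 4 and the others in lanes 3 and 6, so lane and cycle cannot be told apart here either, and 1 fit over all 22 Tet minus libraries gave the spread.

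Tet plus cells, with the MYCN hairpin induced, were compared at the same 4 times. There 1298 genes were higher and 1324 lower at 16 and 22 h than at 3 and 8 h, of 14140 tested (18.5%). The phases were not matched in this arm. Mitotic transcripts summed to 4029 and 4304 CPM at 22 h, against 16117 and 13641 CPM at 8 h. Histone transcripts summed to 18095 and 14634 CPM at 22 h, against 10592.5 and 14269 CPM at 16 h. The titles of the Tet plus libraries at 16 and 22 h are written differently from the others, and these libraries had 0.0645% to 0.119% spike-in counts, against 0.848% to 3.90% at 3 and 8 h, and small non-coding RNAs made up 4.14% to 6.85% of their counts, against 1.94% to 3.503%. Of the 313 genes lower in Tet minus cells 174 (55.6%) were lower in Tet plus cells too, which is 13.1% of the 1324, beside 9.36% of all genes. Of the 71 higher genes 38 (53.5%) were higher, 2.93% of the 1298, beside 9.18% of all genes. CSPG4 fell by 2.24, SPRY4 by 2.69 and ETV5 by 1.39 on the log2 scale in Tet plus cells (adjusted p = 0.00058, 0.0024 and 0.016). VGF was at -1.03 and did not pass there (adjusted p = 0.13). MALAT1 and NEAT1 were at 0.28 and 0.31 in Tet plus cells and did not pass either (adjusted p = 0.33 and 0.46).

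MCM6 was the 1 gene called in opposite directions, with a log2 fold change of -0.37 in Tet plus and 0.55 in Tet minus cells (adjusted p = 0.024 in each). The difference between the arms was not tested, and the phases were not matched in Tet plus cells. DTL, MCM5 and MCM3 were at -0.34, -0.42 and -0.43 in Tet plus cells and did not pass. Of the 31 immediate early genes tested in Tet plus cells 6 were lower and 1 higher, beside 9.36% of all genes lower and 9.18% higher.

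Base composition differed between the called genes. The median GC share of transcripts was 55.4% for genes lower in the second cycle, 43.7% for higher genes and 48.7% for all genes with a transcript (290 of 313, 66 of 71 and 12341 of 13883). The mean GC share per library was 48.1% to 50.02% in the second cycle, against 48.6% to 50.2% in the first. With each library corrected for GC, 67 genes were higher (0.543%) and 254 lower (2.06%), 2.6% of the 12341, and of the genes called before 50 higher and 215 lower ones were called again. The immediate early list had 12 lower and 0 higher genes under this correction as well.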

How the data were processed

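Ribosomal RNA was removed, ERCC spike-ins were added and directional libraries were sequenced, per the labels' protocols, for 44 libraries, of which 8 enter the main comparison. Reads were aligned to hg19 with TopHat2 2.0.5 and HTSeq was used, per the submitters' processing notes; the gene annotation, the HTSeq version and the strand setting were not stated in the sources used here. The authors deposited whole-number counts per gene for 23367 genes, with 92 spike-in rows. Genes were tested from these counts with edgeR 4.0.16 in R 4.3.3 (TMM scaling, filterByExpr, quasi-likelihood test, Benjamini-Hochberg adjusted p under 0.05), with phase and replicate number as covariates and 4 residual degrees of freedom. The 16 against 3 h, 22 against 8 h, phase and held-out comparisons used 1 fit over the 22 Tet minus libraries. The spike-in rows stayed out of library sizes and tests. DESeq2 1.42.0 was an alternative, and the steps were tested on simulated data. CPM values are TMM-scaled and not divided by length.

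P-values measure the spread between these samples, labelled as biological replicates of 1 line. In the main comparison 1 cycle difference was fitted for both phases, so a difference that depends on phase adds to that spread. Deviations of same-numbered libraries from their time's mean correlated at 0.575 to 0.610 between 8, 16 and 22 h. Between 3 h and these times the correlations were only 0.063 to 0.169. The numbers thus share a term at 8, 16 and 22 h and little at 3 h. Replicate number was still a covariate of the main test, and same-numbered pairs entered the rule for named genes. The numbers were not taken to show that libraries came from the same culture. Genes were named by rule: the 15 highest and 15 lowest called genes whose log2 CPM averaged 3 or more and whose sign was shared by all 4 pairs, outside the histone, mitotic and small RNA lists, up to 4 genes per list, MYCN, and the 10 genes with the smallest p for phase dependence. The comparison, gene lists and named genes were chosen with earlier results of these data known. Promoters came from RefSeq, GRCh38.p14.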

Additional observations from a re-analysis of the deposited data

Results flagged for a closer look

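The cycle difference depended on phase in the following genes, by a test of the difference itself (log2 difference at 22 against 8 h minus that at 16 against 3 h, edgeR's quasi-likelihood test). NAB2 had 1.97 and FOSL2, a FOS-related subunit of AP-1, 1.79. FOSL2 had log2 differences of -1.65 at 16 against 3 h and 0.14 at 22 against 8 h. ERRFI1, a feedback inhibitor of the EGF receptor, had 1.57, with log2 differences of -1.61 at 16 against 3 h and -0.05 at 22 against 8 h. FAM84B had 1.53 and PDGFRA 1.27. ETV4 had -2.36 and UNC5C -1.41. DIO2, the deiodinase that activates thyroid hormone, had -2.13, with 7.88 and 21.9 CPM at 16 h, against 2.56 and 10.3 CPM at 3 h, and 5.84 and 15.7 CPM at 22 h, against 9.87 and 29.1 CPM at 8 h. CDH6, a cadherin, had -1.75 and SERPINH1, a collagen chaperone, -1.59, both higher at 16 than at 3 h and lower at 22 than at 8 h. Adjusted p-values of these 10 genes ran from 2.9e-05 to 0.0001.

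MCM6 was lower in the second than in the first cycle in Tet plus cells (log2 fold change -0.37) and higher in Tet minus cells (0.55). Every same-numbered pair moved that way in its arm, and the difference between the arms was not tested.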

How the results depend on the processing

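The 384 called genes became 32 without the replicate block, 766 with DESeq2's Wald test, 577 with no low-count filter, 203 when only genes averaging a log2 CPM of 3 or more were tested, 2319 with all 22 Tet minus libraries in the fit, 886 with all 44, 1213 with 18 h in place of 16 h and 1853 with 6 h in place of 3 h. Leaving out 1 library gave 95 to 498. Other scalings, 20 h for 22 h, 10 h for 8 h and the GC correction gave 305 to 391. Without the replicate block the counts were 326 at 16 against 3 h, 161 at 22 against 8 h, 74 for phase dependence, 833 at 18 and 20 against 6 h and 1711 in Tet plus cells. ERCC scaling gave 28, 6, 0 and 113 for the first 4 of these, and 361 for the cycle difference, none of them higher. The GC correction with the replicate block gave 795 genes for phase dependence. Leaving out 1 library gave 421 to 2848 at 16 against 3 h, 254 to 508 at 22 against 8 h, 128 to 618 for phase dependence, 742 to 3280 at 18 and 20 against 6 h and 1018 to 3535 in Tet plus cells. Signs changed under ERCC scaling for MCM6 (-0.0041), MCM3 (-0.076), RPL13A (-0.13) and DLL3 (-0.092). The median gene was at -0.58 under that scaling, and these genes stood 0.44 to 0.57 above it. With 6 h in place of 3 h the sign changed for FAM84B (0.53). The cause of these changes was not tested. Among immediate early genes 3 to 21 were lower and 0 higher under these alternatives. The total called for the cycle difference ran from 32 to 2319 genes under them, so these counts are not read on their own. With 2 libraries a time and 4 residual degrees of freedom, genes that missed the threshold are not shown to be equal between cycles.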
